A study of Mus musculus with 8 samples.

Results

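A set of 10 homeobox genes of the distal and dorsoventral limb bud was followed in sorted forelimb cells: Msx1, Msx2, Dlx3, Dlx5, Dlx6, Lhx2, Lhx9, Lmx1b, En1 and Alx4. All probes that the platform annotation gives to these 10 symbols were taken, 17 of the 45281 probes on the array, and 0 of the 17 were shared with another gene. The array named 19057 genes in all.

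The cells came from forelimbs of E12.5 mouse embryos (strain C57BL/6J;129) and were sorted by fluorescence from an EGFP reporter at the locus of Bapx1 (Nkx3-2), a homeobox gene of the skeleton, to ask what its loss changes in the cells that use its promoter. The 4 wildtype samples (Bapx1 +/tm2.Tlu) carried an intact Bapx1 gene with EGFP behind an internal ribosome entry site in its untranslated end. The 4 Bapx1 null samples were homozygous for tm4.Tlu, in which EGFP follows the start codon and part of the coding sequence is lost. All 8 samples therefore carried EGFP at this locus, but the reporter's design and copy number went with the genotype, and their effects cannot be told apart from it. At least a pair of independent embryonic stem cell clones was used for each allele, and the methods call the replicates biological. Total RNA was labelled as biotinylated cRNA and read on Illumina mouse arrays, 1 array per sample.

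Limb buds grow outward under an apical ridge of ectoderm, and their dorsal and ventral sides are told apart by factors acting in the ectoderm and in the mesenchyme beneath it. En1 marks ventral ectoderm, where it keeps Wnt7a off, and Lmx1b, switched on by Wnt7a, makes mesenchyme dorsal. Msx1 and Msx2 are repressors in mesenchyme and ridge that respond to BMP signals, the Dlx genes act in the ridge and in cartilage, and Lhx2 and Lhx9 act in distal mesenchyme, where they relay ridge signals. Alx4 limits Shh to the posterior margin of the bud.

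Arrays had median deposited intensities of 57.9 to 70.4, with 43.8% to 46.1% of probes above background. Array pairs correlated between 0.98 and 0.998, and precision is set by the small number of arrays. Both Bapx1 probes were above background on 0 of 4 arrays labelled wildtype and on 4 of 4 labelled null (intensity 44.5 to 60.2 against 196.4 to 288.5), so the targeted gene read higher under the null label. Where these probes lie relative to the coding sequence lost in the null, or to the EGFP insertion of the wildtype allele, is not given in the sources used here. A probe outside the lost sequence would not check the labels. That loss concerns the null allele only, and why neither probe was above background under the wildtype label was not tested. Each direction below is that of the arrays labelled null against those labelled wildtype. The arrays of null replicates 2 and 3 stood apart from the other null arrays. For one Xist probe the normalized log2 intensity was 8.99 and 6.57 there, against 11.26 and 11.58 in null replicates 1 and 4. A Kdm5d probe, of the Y chromosome, was at 9.40 and 9.66 against 8.72 and 8.44. The sex-linked signal also moved with the genotype label. The same Kdm5d probe was at 7.76 to 8.34 on the wildtype arrays, below all 4 null arrays (change 0.98, adjusted p = 0.0748). One probe of Eif2s3y, also Y-linked, was higher in the null by 0.83 (adjusted p = 0.0365). Another Xist probe was at 9.91 to 10.45 in wildtype and 5.87 to 9.83 in null, without overlap but not called (adjusted p = 0.215 by limma). Its null values were 7.34 and 5.87 in replicates 2 and 3, against 9.59 and 9.83 in replicates 1 and 4. The remaining Xist probes overlapped between labels (adjusted p = 0.323 to 0.378 by limma). So did a dimmer Eif2s3y probe (change 0.24, adjusted p = 0.352) and the kept probe of Uty, also Y-linked (0.25, adjusted p = 0.627). Results that rest on null replicates 2 and 3 are given with and without them.

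Of the 17 member probes, 8 were kept, which required a detection p below 0.05 (above background) on 4 or more arrays. They stood for 6 genes: 1 probe each for Msx1, Dlx3, Lhx2 and Alx4, and a pair each for Lhx9 and En1. All 8 were above background on every array, so none passed through 1 group alone. The other 9 probes had deposited intensities of 38.6 to 74.5, and 8 of them were above background on 0 arrays. The plot of detection by array shows both sets.

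**Figure D1:**
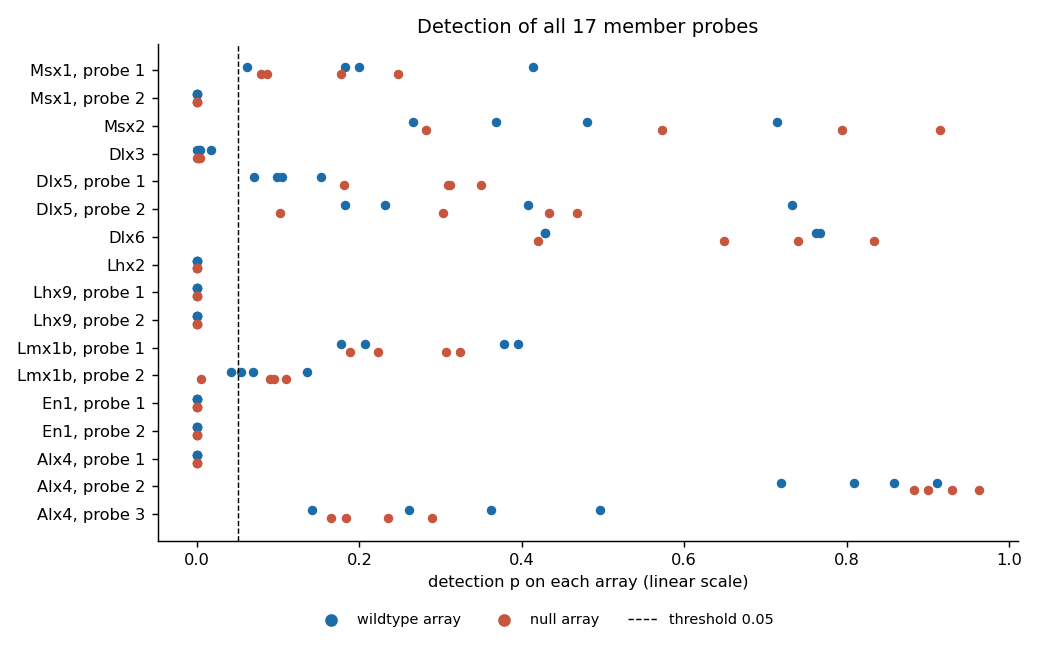
Detection p (linear x axis, lower is brighter against background) of each of the 17 member probes on 4 wildtype and 4 null arrays, with the threshold of 0.05 as a dashed line. The 8 kept probes lie left of the line on all 8 arrays, whereas of the other 9 only 1 Lmx1b probe reaches it, on 1 array of each label.

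Msx2, Dlx5, Dlx6 and Lmx1b had no kept probe. The Msx2 probe, for the partner of Msx1 in ridge and mesenchyme, read 46.1 to 53.5 on the wildtype arrays and 41.8 to 54.2 on the null arrays, within the range of background. Dlx5 and Dlx6 are neighbours on their chromosome with 0 protein-coding genes between them, and are needed together for the outgrowth of the ridge and the skeleton. The Dlx6 probe read 43.8 to 51.7 in wildtype and 43.2 to 52.3 in null. One Dlx5 probe read 68.5, 58.8, 66.8 and 59.5 on the wildtype arrays and 50.4, 55.0, 54.1 and 57.8 on the null arrays. These groups did not overlap, but the probe was above background on 0 of 8 arrays (detection p 0.0705 to 0.349). No fold can therefore be given for it, and the second Dlx5 probe overlapped (45.5 to 62.1 in wildtype, 49.8 to 58.2 in null). For Lmx1b, the dorsal mesenchyme factor, the brighter probe was above background on wildtype replicate 4 and null replicate 1 only (detection p 0.0417 and 0.00534). Its intensity was 64.1 to 69.1 in wildtype and 63.2 to 70.7 in null. These 4 genes were not detectable with these probes, which does not show that they were absent.

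Among the 8 kept probes 2 were called at an adjusted p under 0.05, and both were lower in the null: the Alx4 probe and the brighter En1 probe. No kept member probe was called higher. Over all 20593 kept probes 3.97% were called, 2.12% lower and 1.85% higher, so the members' count of 2 is to be read against a background of 817 probes. After scaling by the median absolute deviation the all-probe split was 31 higher and 84 lower, in place of 380 higher and 437 lower, and 0 member probes were called. By the methods' t-test 0 were called as well. At an unadjusted p under 0.05, 4 of the 8 member probes passed with limma, where 17.4% of all kept probes did. The wildtype and null arrays did not overlap for 4 of the 8 (Alx4, both En1 probes and Lhx2), all lower in the null, where 12.3% of all kept probes did not overlap. The median log2 change of the 8 was -0.15, beside 0.00878 over all kept probes.

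**Figure D2:**
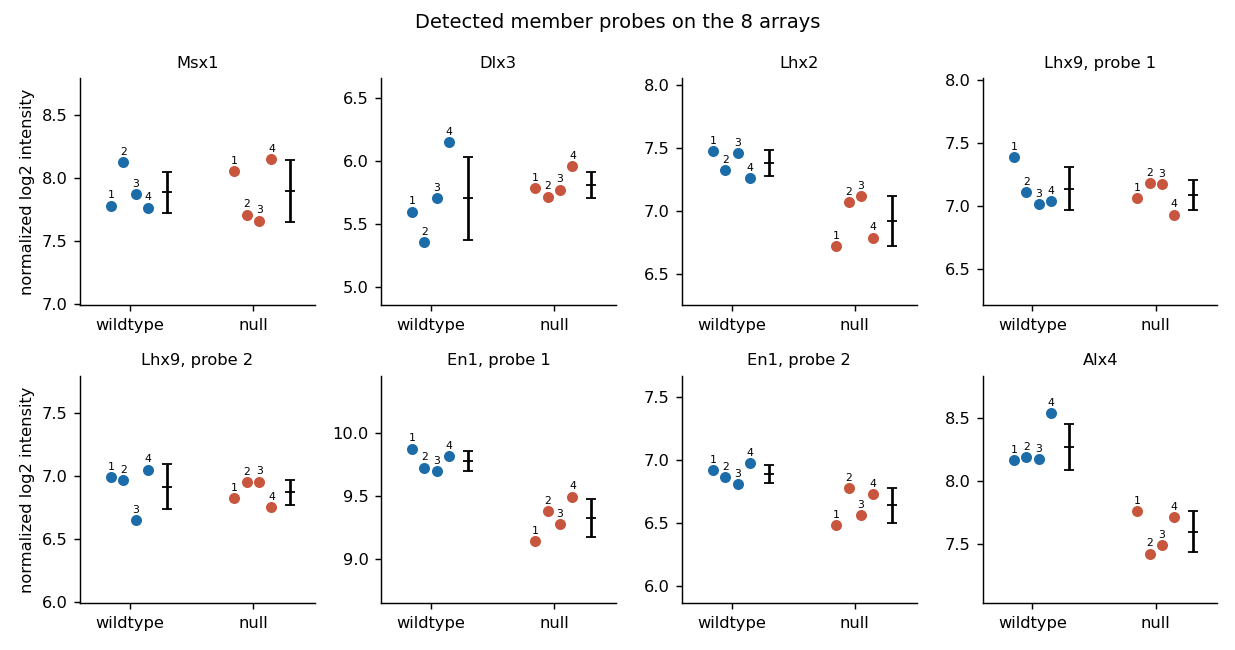
Normalized log2 intensity (y axis, the same span in each panel) of the 8 kept member probes on each array, numbered by replicate, with the mean and SD of the 4 arrays as a bar. Wildtype and null arrays are apart for Lhx2, both En1 probes and Alx4, and overlap for Msx1, Dlx3 and both Lhx9 probes.

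Alx4, a paired-type homeobox gene of the anterior limb mesenchyme, was lowest relative to wildtype among the members. Its normalized log2 intensity (probe ILMN_2487824) was 8.17, 8.19, 8.17 and 8.54 on the wildtype arrays and 7.76, 7.43, 7.49 and 7.72 on the null arrays. Every null array lay below every wildtype array, and wildtype replicate 4 was above the other 3. The means were 8.27 ± 0.18 and 7.60 ± 0.16 (SD, n = 4 each), a log2 change of -0.67 (SE 0.12, 95% interval -0.93 to -0.41, adjusted p = 0.0135 by limma), or 1.59-fold lower. The deposited intensities, before any scaling, did not overlap either (306.4 to 388.9 against 205.6 to 241.6). Of all kept probes, 2.34% had a larger absolute change. In sorted bulk cells, fewer cells of a type and less RNA per cell cannot be told apart.

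The change of Alx4 was past the threshold when any 1 array was left out, between -0.58 (without wildtype replicate 4, adjusted p = 0.0317) and -0.72 (without null replicate 1, adjusted p = 0.0188). Null replicates 2 and 3 were the lowest for Alx4, and without them the change was -0.53 with an adjusted p of 0.0555. With the mean Y-linked signal in the model it was -0.46 with an adjusted p of 0.0895. The other Alx4 probes were above background on 0 arrays (intensity 38.6 to 47.2 and 47.8 to 60.2), so this gene rests on 1 probe.

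En1, known from ventral ectoderm, was lower by both of its probes. The brighter (ILMN_2776047) gave 9.87, 9.72, 9.70 and 9.81 on the wildtype arrays and 9.14, 9.38, 9.27 and 9.49 on the null arrays. The groups did not overlap after normalization, with null replicate 1 lowest, whereas the deposited intensities did (750.3 to 1163.6 against 476.7 to 791.6). The log2 change was -0.46 (SE 0.09, 95% interval -0.66 to -0.25, adjusted p = 0.0264 by limma), or 1.37-fold lower. The second En1 probe (ILMN_3163581) gave 6.92, 6.86, 6.81 and 6.97 in wildtype and 6.48, 6.78, 6.56 and 6.73 in null. Its deposited intensities overlapped too (135.6 to 190.0 against 105.5 to 160.0). Its change of -0.25 (SE 0.09, 95% interval -0.45 to -0.06) did not pass (adjusted p = 0.171), although its groups did not overlap after normalization (exact two-sided permutation p = 0.029, the smallest that 70 assignments allow).

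The call of the brighter En1 probe was lost when any one of 6 of the 8 arrays was left out, with changes of -0.39 to -0.51 and adjusted p-values of 0.0284 to 0.0741 over the 8 omissions. Only without wildtype replicate 3 or null replicate 4 was it kept. Without null replicates 2 and 3 the change was -0.46 with an adjusted p of 0.0712.

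The En1 promoter is shown because En1 is the called member whose promoter sequence was at hand and because it held the single match among the members. Promoters were the RefSeq entries of GRCm38.p6 from 250 bases before to 50 after the start site, 7 of them for 6 member genes (Msx1, Msx2, Lhx2, Lhx9, Lmx1b and En1). They were searched on both strands for TAAGTG and TGAGTG, forms of the site that Bapx1 proteins are known to bind. The match lies on the gene's strand in the entry chr1:120602237-120602536, with its first base 215 bases before the start site, and is in capitals in the stretch below.
En1, around the match: tgggccgaacccTGAGTGtcagcgcgagtt
The other 6 promoters held neither form in this window. Of 32851 promoters of the same length 23.9% held at least 1 match, so 1 of 7 is no more than the background, and a match in letters is not a bound site.

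Lhx2, a LIM homeobox gene of the distal mesenchyme, was lower in the null without passing the threshold. Its probe (ILMN_2722383) gave 7.47, 7.33, 7.46 and 7.26 on the wildtype arrays and 6.72, 7.07, 7.11 and 6.79 on the null arrays. The groups did not overlap after normalization, with null replicates 2 and 3 nearest to wildtype, whereas the deposited intensities did (156.9 to 259.5 against 118.1 to 193.0). The log2 change was -0.46 (SE 0.11, 95% interval -0.70 to -0.21, adjusted p = 0.0508 by limma). It was past the threshold without null replicate 3 (-0.52, adjusted p = 0.0474), without null replicates 2 and 3 together (-0.62, adjusted p = 0.0180) and with the mean Y-linked signal in the model (-0.68, adjusted p = 0.0190). It also passed the threshold with another background correction (normexp, offset 50, adjusted p = 0.0418) and without correction (0.0423). The same held with detection required on all arrays of a genotype (0.0459) and with array weights (0.0409). Lhx2 stayed short of the threshold without any other single array (adjusted p = 0.0741 to 0.137), after scaling by the median absolute deviation (0.441), in the authors' processed table (0.386) and with the replicate block (0.111). It was also short with no probe filter (0.0776), a filter on intensity percentile (0.0585), the trend and robust variance (0.0505) and the methods' t-test (0.1155).

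Lhx9, its close relative, was not called by either probe. The first (ILMN_1245843) gave 7.38, 7.11, 7.01 and 7.04 in wildtype and 7.06, 7.18, 7.18 and 6.93 in null. The second (ILMN_3160067) gave 6.996, 6.97, 6.65 and 7.05 in wildtype and 6.83, 6.95, 6.96 and 6.76 in null. For both probes the groups overlapped. The log2 changes were -0.05 (95% interval -0.28 to 0.18) and -0.05 (95% interval -0.28 to 0.19), with adjusted p-values of 0.866 and 0.873, so a fall as large as the mean change of Lhx2 lies outside both intervals.

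Whether Lhx2 and Lhx9 changed unequally was tested on their difference within each array, with the first Lhx9 probe. This log2 difference was 0.24 ± 0.15 (SD, n = 4, range 0.0899 to 0.444) on the wildtype arrays and -0.17 ± 0.12 (n = 4, range -0.346 to -0.0610) on the null arrays. The ranges did not overlap. Of single kept probes 12.3% did not overlap either, and the share among pairs of genes was not computed. The null difference was lower by -0.41 (95% interval -0.785 to -0.155, from inverting the permutation test; exact two-sided permutation p = 0.029, the smallest possible here). Of 5 pairs planned (Msx1 with Msx2, Dlx5 with Dlx6, Dlx3 with Dlx5, Lhx2 with Lhx9, Lmx1b with En1) only this 1 had kept probes for both genes, so no adjustment over pairs applied. With the second Lhx9 probe, chosen after seeing the data, the difference was -0.41 as well (exact permutation p = 0.029), from 0.205 to 0.803 in wildtype and -0.111 to 0.156 in null. The level at which either difference lies depends on the probes, and only its change between labels is compared. Without null replicate 1, which had the lowest Lhx2 value, the difference was -0.35 with an exact permutation p of 0.0571.

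**Figure D3:**
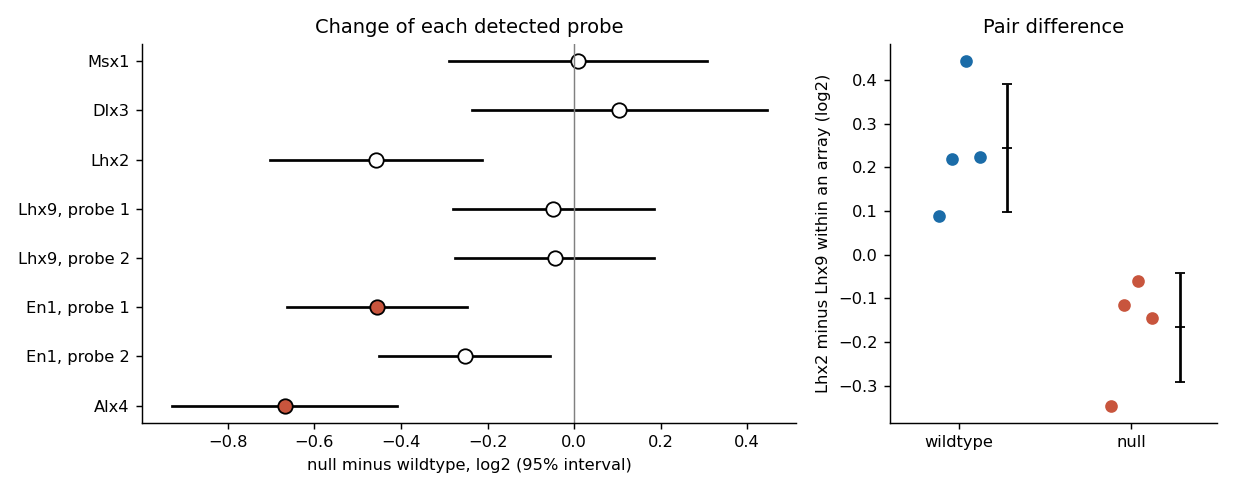
Left, log2 change (null minus wildtype) of each kept probe with its 95% interval, filled where the adjusted p was under 0.05 (Alx4 at -0.67 and the brighter En1 probe at -0.46). Right, the log2 difference of Lhx2 minus Lhx9 on each array with the mean and SD of 4; the arrays of the 2 labels do not overlap.

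Msx1, a repressor that responds to BMP and keeps mesenchyme undifferentiated, was not called. Its kept probe (ILMN_1246173) gave 7.78, 8.13, 7.88 and 7.77 on the wildtype arrays and 8.06, 7.71, 7.67 and 8.15 on the null arrays. The null arrays fell into a higher and a lower pair, replicates 1 and 4 against 2 and 3, with the wildtype arrays between and among them. The log2 change was 0.01 (SE 0.13, 95% interval -0.29 to 0.31, adjusted p = 0.982). The second Msx1 probe was above background on 0 arrays (48.8 to 74.5).

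Dlx3, the distal-less gene best known in skin, teeth and placenta, had the dimmest kept probe (ILMN_2675833, intensity 72.4 to 97.5). Its normalized log2 intensity was 5.60, 5.35, 5.70 and 6.15 in wildtype and 5.78, 5.71, 5.77 and 5.96 in null. All 4 null values lay within the wildtype range. The log2 change was 0.10 (SE 0.15, 95% interval -0.24 to 0.45, adjusted p = 0.789).

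The genes around the members were counted in 3 further lists, each gene by its brightest kept probe. Each count is to be read beside the 3.97% of all kept probes that were called, 2.12% lower and 1.85% higher. Of 9 measured cofactors of LIM homeodomain proteins (Ldb, Lmo, Ssbp and Rlim genes), which bridge or block factors such as Lhx2 and Lmx1b, 1 rose, 0 fell and 8 were not called. The gene that rose was Lmo3, a LIM-only protein, at 5.39, 5.79, 5.84 and 5.26 in wildtype and 6.86, 6.81, 6.86 and 6.76 in null. Its change of 1.26 (SE 0.13, adjusted p = 0.00128 by limma) was the largest rise in this list, whose median change was 0.18. The rise of Lmo3 was 0.74 with another background correction (normexp, offset 50), 0.84 without correction and 0.84 in the authors' processed table.

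Of 16 related homeobox genes on the array (other Msx, Dlx, Lhx, Isl, En, Alx and Prrx genes) 6 were measured (Isl2 through the null arrays alone), of which 0 rose, 1 fell and 5 were not called, with a median of 0.111. Alx1, a close relative of Alx4, was the one that fell. It stood at 6.78, 6.77, 6.36 and 6.78 on the wildtype arrays and 5.58, 5.57, 5.51 and 5.66 on the null arrays, well apart. The change was -1.09 (SE 0.11, adjusted p = 0.000846), past the threshold in all 21 alternatives run. Its size varied with the background handling. It was -0.64 with another correction (normexp, offset 50), -0.73 without correction and -0.73 in the authors' processed table. Whether Alx1 and Alx4 fell by unequal amounts was not tested.

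Of 12 measured ridge and dorsoventral signals (of 21 on the array) 0 rose, 1 fell and 11 were not called, with a median of -0.13. Grem1, the BMP antagonist that keeps the ridge signals going, fell: it was at 9.52, 9.12, 9.58 and 9.19 in wildtype and 8.55, 8.37, 8.32 and 8.56 in null. Its change was -0.90 (SE 0.12, adjusted p = 0.00402), past the threshold in every alternative but scaling by the median absolute deviation (-0.85, adjusted p = 0.360). Wnt7a, the dorsal ectoderm signal that En1 restrains, was above background on 0 arrays. Fgf8, the main signal of the ridge, was above background on all 8 arrays, at 5.90 to 6.27 in wildtype and 5.75 to 5.90 in null (change -0.23, adjusted p = 0.267). Wnt7a and Fgf8 are named for their place in the pathway after their values were seen.

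Marker genes of the cells that a limb sort could hold were measured on the same arrays. Of limb ectoderm markers 9 of 14 were kept and 0 were called. Their mean normalized log2 intensity was 5.94 to 6.59 in wildtype and 6.20 to 6.41 in null, and Epcam, Krt5, Perp and Grhl2 were above background on 0 arrays. The median change of this list was -0.0508. Its lowest changes were those of Krt14, a keratin (-0.39, SE 0.31), and Cdh1, the epithelial cadherin (-0.33, SE 0.17). Both were near that of En1 but with wider errors. Krt8, Krt15, Krt18 and Trp63 had changes above 0 (0.24, 0.15, 0.05 and 0.26). Whether En1 changed differently from the ectoderm markers was not tested. In wildtype the brighter En1 probe had a mean of 9.78 and the second 6.89, and Krt14, the brightest marker of this list, 9.01. Levels depend on the probe, and which of the sorted cells held En1 RNA was not tested. Of limb mesenchyme markers 10 of 11 were kept and 0 called (9.06 to 9.40 in wildtype, 9.05 to 9.29 in null). Their mean joins changes of opposite sign. Meis2, Meis1 and Shox2 were lower (-0.90, -0.78 and -0.65), and Prrx1, Hoxa13 and Hoxd13 higher (0.51, 0.42 and 0.33). With array weights 3 mesenchyme markers were called lower and 1 higher. Of cartilage markers 11 of 13 were kept and 0 called, with a median change of 0.196. Their mean was 8.61 to 8.67 in wildtype and 8.80 to 8.85 in null, higher on every null array.

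Markers of other cells were lower in the null. The counts that follow stand beside 2.12% of all kept probes called lower. Macrophage genes were called lower in 9 of 11 kept (mean 6.49 to 7.14 in wildtype, 5.11 to 5.30 in null), platelet genes in 9 of 10 (8.29 to 9.11 against 5.67 to 7.06), muscle genes in 6 of 8 (7.77 to 8.04 against 7.24 to 7.53) and endothelial genes in 3 of 7 (6.88 to 7.23 against 6.49 to 6.77). Of the called genes, C1qb, C1qc and Tyrobp (macrophage) and Gp6 (platelet) were above background on 0 null arrays and were kept through the wildtype arrays alone; apart from these, 6 of 8 macrophage and 8 of 9 platelet genes were called. After scaling by the median absolute deviation 7 macrophage, 4 platelet, 0 muscle and 0 endothelial genes were called lower, and with the Y-linked signal in the model 8, 6, 3 and 0. By the methods' t-test 6 macrophage, 1 platelet, 4 muscle and 1 endothelial gene were called lower, and without null replicate 2 the endothelial count was 1. These lists moved with the genotype as Alx4, En1 and Lhx2 did, and the cartilage mean moved the other way. The part of any of these lists in the member results was not tested. Within the null arrays the platelet mean was 5.94 and 5.67 in replicates 2 and 3, against 7.06 and 6.99 in replicates 1 and 4. Alx4, Msx1 and Dlx3 were also lower in replicates 2 and 3 than in 1 and 4. Lhx2 and both Lhx9 probes were higher there, and neither En1 probe split in this way.

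**Figure D4:**
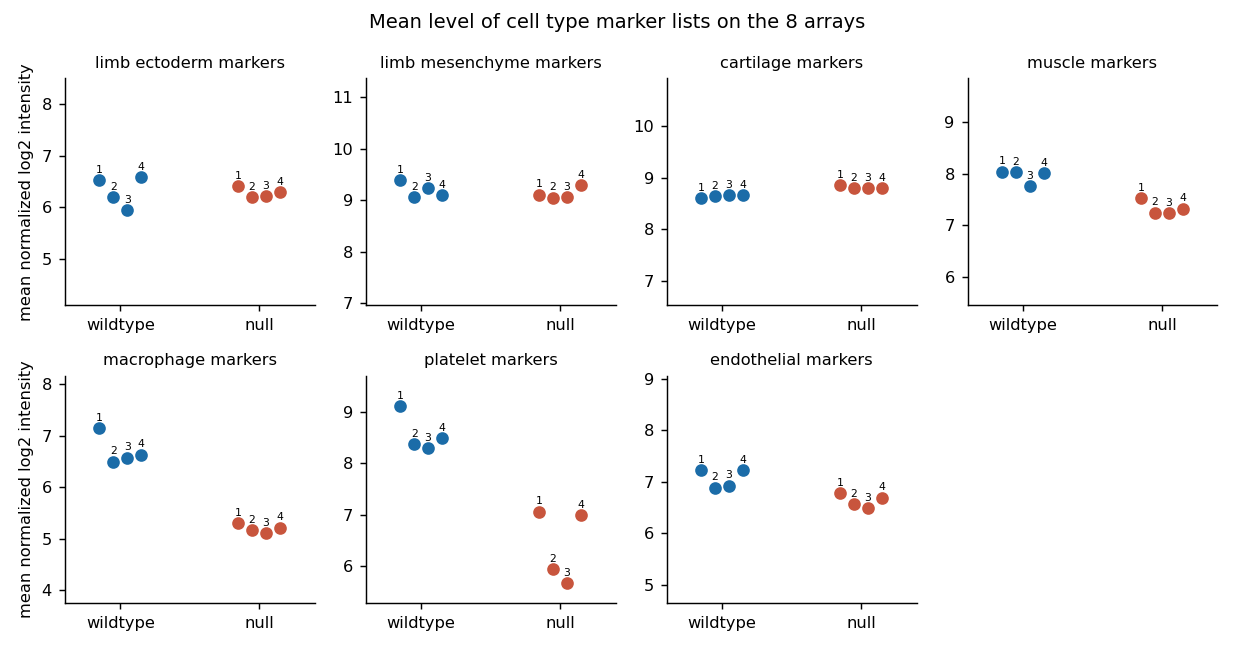
Mean normalized log2 intensity (y axis, the same span in each panel) of the kept genes of 7 marker lists on each array, numbered by replicate. Ectoderm and mesenchyme lists overlap between labels, the cartilage list is slightly higher in the null, and the muscle, macrophage, platelet and endothelial lists are lower on all 4 null arrays.

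The 3 members with the largest changes kept their direction in all 21 alternatives, but not their calls. Alx4 passed in 17, the brighter En1 probe in 9 and Lhx2 in 7. The log2 change ran from -0.78 to -0.46 for Alx4, from -0.51 to -0.39 for En1 and from -0.68 to -0.34 for Lhx2.

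**Figure D5:**
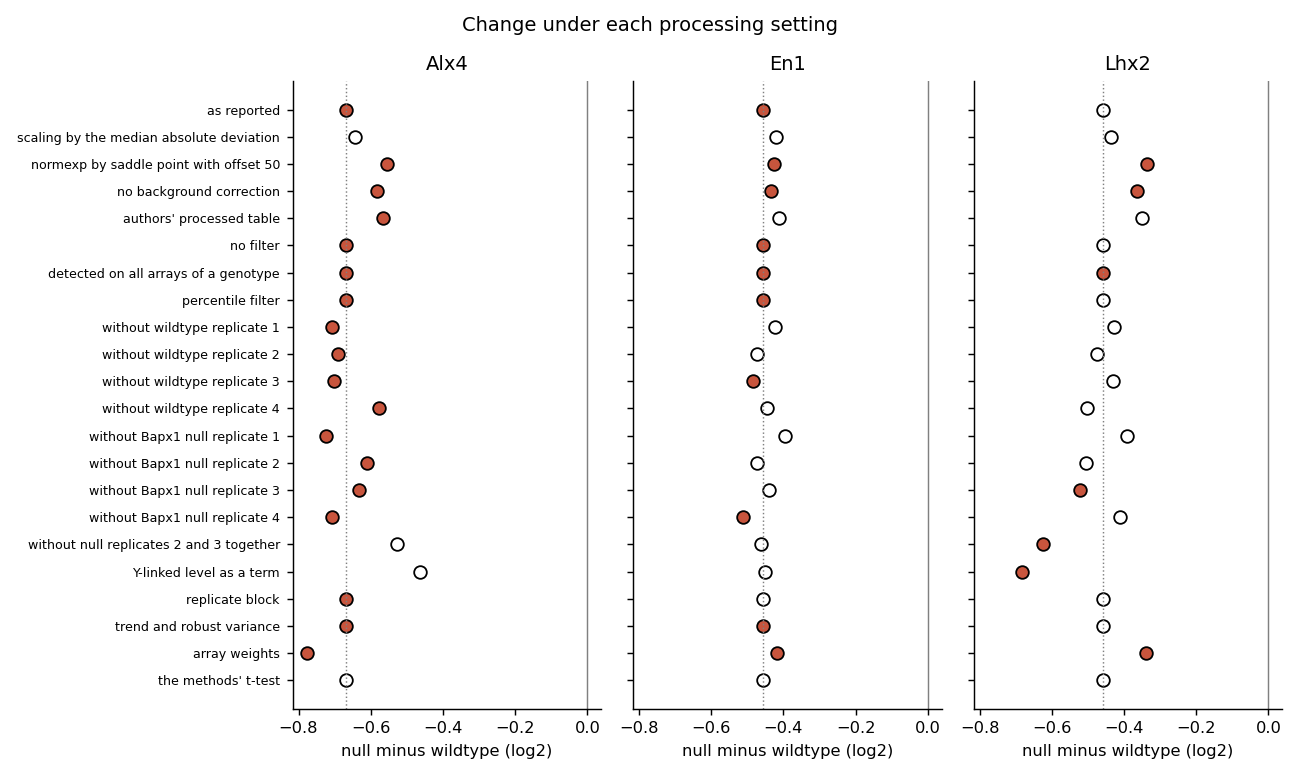
Log2 change (x axis, null minus wildtype) of Alx4, the brighter En1 probe and Lhx2 as reported and under 21 other settings, filled where the adjusted p was under 0.05; the dotted line marks the reported value. All points lie below 0, and fewer are filled for En1 and Lhx2 than for Alx4.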

How the data were processed

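The authors deposited probe intensity on a linear scale from GenomeStudio (no version given in the sources used); it holds no value below 0 and was taken as neither background-subtracted nor normalized. Beside it they deposited a detection fraction, taken as 1 minus the detection p, and a table of processed log2 values with an unknown baseline per probe. The 45281 rows of both tables were paired by their differences between arrays (tolerance 1e-05). The platform annotation names 1 gene for 34885 probes, several for 18 and none for 10378.

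For background correction nec of limma 3.58.1 was used (R 4.3.3, offset 16). Arrays were then quantile normalized and put on the log2 scale. A probe was kept if its detection p fell below 0.05 on 4 or more of 8 arrays, and genotypes compared with lmFit and eBayes, two-sided, with Benjamini-Hochberg adjustment over 20593 kept probes. Single values and the pair difference used exact permutation of 70 assignments. All member probes are named, with up to 3 called genes per list, Bapx1 and Xist. Kdm5d, Eif2s3y, Uty, Wnt7a, Fgf8, Isl2 and the single ectoderm and mesenchyme markers were chosen after their values were seen. So were the markers undetected under 1 or both labels. The members and lists were chosen with earlier results of these data known. The chain was run on simulated arrays with known changes in brighter probes only, independent noise and no other difference between the groups. That run checks the code and says nothing of dim probes or of sex and cell mixture here. Alternatives covered scaling, background, filter, array weights, the variance model, a replicate block, the methods' t-test (one-way variance analysis), the Y-linked level and omitted arrays.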

Additional observations from a re-analysis of the deposited data

Results flagged for a closer look

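The level of Alx4 on the array of wildtype replicate 4 (8.54) stood apart from the other 3 wildtype arrays: its gap to the nearest of them (8.19) was 0.926 of the group's range, above Dixon's 95% critical value for 4 samples. Of 16 groups looked at in this way (8 kept probes on the arrays of each label) this was the only one, and chance flags about 1 in 20. Without this array the log2 change of Alx4 was -0.58 with an adjusted p of 0.0317.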

How the results depend on the processing

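In place of 2 member probes, 0 were called after scaling by the median absolute deviation and by the methods' t-test, and 1 in the authors' processed table and with the replicate block (Alx4 in both). Lhx2 was added, for a count of 3, with another background correction (normexp, offset 50) and without correction. The count was also 3 with detection required on all arrays of a genotype and with array weights. Without null replicates 2 and 3 together, and with a term for the Y-linked level, 1 was called, Lhx2, and neither Alx4 nor En1. Leaving out each array gave 1 to 2. Over the 3 limb lists the count of 3 called genes became 5 without null replicates 2 and 3 and with the trend and robust variance, 6 with the Y-linked term and 7 with array weights. Over all probes 817 calls became 115 (scaling), 333 (authors' table), 1749 (Y-linked term), 1877 (array weights) and 378 (t-test). The calls fell to between 409 and 615 when 1 array was left out, and to 434 with the block. The cause was not tested. Alx4 lost its call after scaling (-0.64, adjusted p = 0.881), with the Y-linked term (-0.46, adjusted p = 0.0895), by the t-test (adjusted p = 0.0620) and without null replicates 2 and 3. The difference of Lhx2 minus Lhx9 was -0.49 without null replicates 2 and 3 (exact permutation p = 0.0667) and -0.41 with the replicate block (exact permutation p = 0.125), each the smallest p that design can give, and -0.34 to -0.46 over the omitted arrays. Changes near 0 turned sign with array weights for Msx1 (-0.15) and the Lhx9 probes (0.0354 and 0.0424). Over the omitted arrays they spanned 0 for Msx1 (-0.0770 to 0.0880), Dlx3 (-0.0109 to 0.257) and the first Lhx9 probe (-0.0881 to 0.0351). None of these 4 probes passed the threshold in any of the 21 alternatives. Same-numbered arrays of the groups shared only a number: their deviations correlated at 0.0583, 0.244, -0.184 and -0.26, and 0 of 4 wildtype arrays were best matched by their own number. Dim probes limit what can be said of Msx2, Dlx5, Dlx6 and Lmx1b.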
